A study of Mus musculus with 18 samples.

Results

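Fabp1, Fabp2, Fabp6, Rbp2 and Dbi encode small proteins of the cytosol that bind fatty acids, bile acids, retinol or acyl-CoA. These 5 mRNAs were chosen by name, with earlier results of these data in view, out of 21013 coding genes annotated in RefSeq for mm10. Their sites were all listed positions in an exon of a RefSeq transcript of the gene, on its strand. This gave 36 of the 18059 distinct mRNA sites of the series. Fabp2 carried 13 of them, Rbp2 14, Fabp1 6, Dbi 3 and Fabp6 0. None lay in an exon of another coding gene, and the spans of the 5 genes held no further site on either strand.

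The labels describe cortical neurons of C57BL/6 mice, taken at fetal day 18 and kept as a primary culture. Control cultures were untreated. The other groups were held without glucose under hypoxia for 1.5 h (OGD/R 1.5 h) or 3 h (OGD/R 3 h) and then returned to normal medium and air for 24 h. The gas mixture stated for the deprivation adds up to more than the whole, so the oxygen level is not known. RNA depleted of rRNA was treated with bisulfite, which turns unmethylated cytosine into uracil and leaves 5-methylcytosine (m5C) as it is, and each group had 3 such libraries. No label says that the libraries of a group came from separate cultures. In the coverage that the study lists for part of its sites, replicates of control and of OGD/R 3 h differed by less than the sampling noise. For this reason control and OGD/R 3 h were each counted as 1 sample. No such coverage was at hand for OGD/R 1.5 h, which was treated the same way without this check. No p-value is given. SDs below describe the spread between libraries.

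The deposited files give no read depth. Control libraries held 3800 to 4146 mRNA sites, OGD/R 1.5 h libraries 3508 to 3749 and OGD/R 3 h libraries 4733 to 5269. The study took a site as credible where its coverage reached 10 reads and its methylation level 0.1. The files are read here as following these limits, which was not checked. On this reading, a position that is absent was too low in either and need not be unmethylated. The score of a site is 10 times the call score of meRanCall, cut to its whole part and capped at 1000. It grows with coverage and level together, and neither can be read from it. The number of sites therefore also depends on how much of an mRNA was in the RNA, and in such bulk samples fewer cells of a type and less RNA per cell cannot be told apart.

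Fabp1, Fabp2, Fabp6 and Rbp2 belong to the family of intracellular lipid binding proteins, which fold into a barrel around their ligand. The liver-type protein of Fabp1 and the intestinal protein of Fabp2 carry fatty acids in absorptive cells of the small intestine, and Fabp1 is also abundant in liver. Fabp6 carries bile acids in the ileum. Rbp2 encodes cellular retinol binding protein 2, which takes retinol to its esterifying enzyme in enterocytes. Dbi encodes acyl-CoA binding protein, also known as diazepam binding inhibitor. It belongs to another protein family and is made in many tissues, glia included.

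The labelled cell type was compared with marker genes. Of 12 neuronal markers (Tubb3, Map2, Rbfox3, Snap25, Syp, Stmn2, Dcx, Gap43, Mapt, Nefl, Syn1 and Camk2a), 0 carried a site in any of the 9 libraries. Of 12 markers of intestinal epithelium, Vil1, Epcam and Slc5a1 among them, all 12 did. Their summed sites were 53 to 58 per control library, 35 to 43 per OGD/R 1.5 h library and 96 to 110 per OGD/R 3 h library. Of 5 hepatocyte markers 0 carried a site, and of 6 astrocyte markers only Aldh1l1 did. Over all annotated coding genes, 12.4% had a site in any library. That share takes in genes that the cells do not express, and no share over expressed genes was worked out. It is therefore a poor measure for markers of the labelled cell type. The intestinal list, at 12 of 12, lay above it and the neuronal list, at 0 of 12, below it. For the 5 hepatocyte and 6 astrocyte markers, lists this short can hold few or no genes with a site. What the counts mean for the labelled cell type was not tested. The lists were chosen with earlier results of these data known. The part of these cell types in the results on the 5 mRNAs was not tested.

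In all, 18 of the 36 sites were listed in all 3 libraries of at least 1 group. They are shown with the 10 bases on either side, read from mm10 along the spliced RefSeq mRNA, 5′ to 3′, with T for U and the called cytosine in capitals, since they carry the comparison of the groups. Positions are counted from 1 at the 5′ end of the mRNA. Listed in all 3 control libraries, and in 0 libraries of OGD/R 3 h, were the following.
Fabp1 nt 22: ttgtggtcagCtgtggaaagg
Fabp1 nt 37: gaaaggaagcCtcgttgccac
Fabp2 nt 383: ggaacgagaaCtatgaaaagt
Rbp2 nt 60: cacatcaaacCagaggccacc
Rbp2 nt 130: actttgaaggCtacatgaagg
Dbi nt 368: ccatgaagacCtatgtggaaa

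Listed in all 3 libraries of both control and OGD/R 3 h were the following.
Fabp1 nt 272: gagaccatgaCtggggaaaaa
Fabp2 nt 353: tggcattcgaCggcacgtgga

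Listed in all 3 libraries of OGD/R 1.5 h were the following.
Fabp2 nt 317: cctctgctttCctagagacac
Rbp2 nt 445: cctgcggcgaCcaggtgtgcc

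Listed in all 3 libraries of OGD/R 3 h, and in 0 control libraries, were the following.
Fabp2 nt 439: aagcttggagCtcatgacaat
Fabp2 nt 536: tgtttgagctCggtgtaaact
Fabp2 nt 586: ctcactggggCctggaccatt
Rbp2 nt 121: gtaatgagaaCtttgaaggct
Rbp2 nt 247: acagcacgttCcgcaactacg
Rbp2 nt 483: aagtgatgggCacgggaaagc
Rbp2 nt 494: acgggaaagcCtggaacatgt
Rbp2 nt 513: gtgcagagttCtctgccagtt

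**Figure D1:**
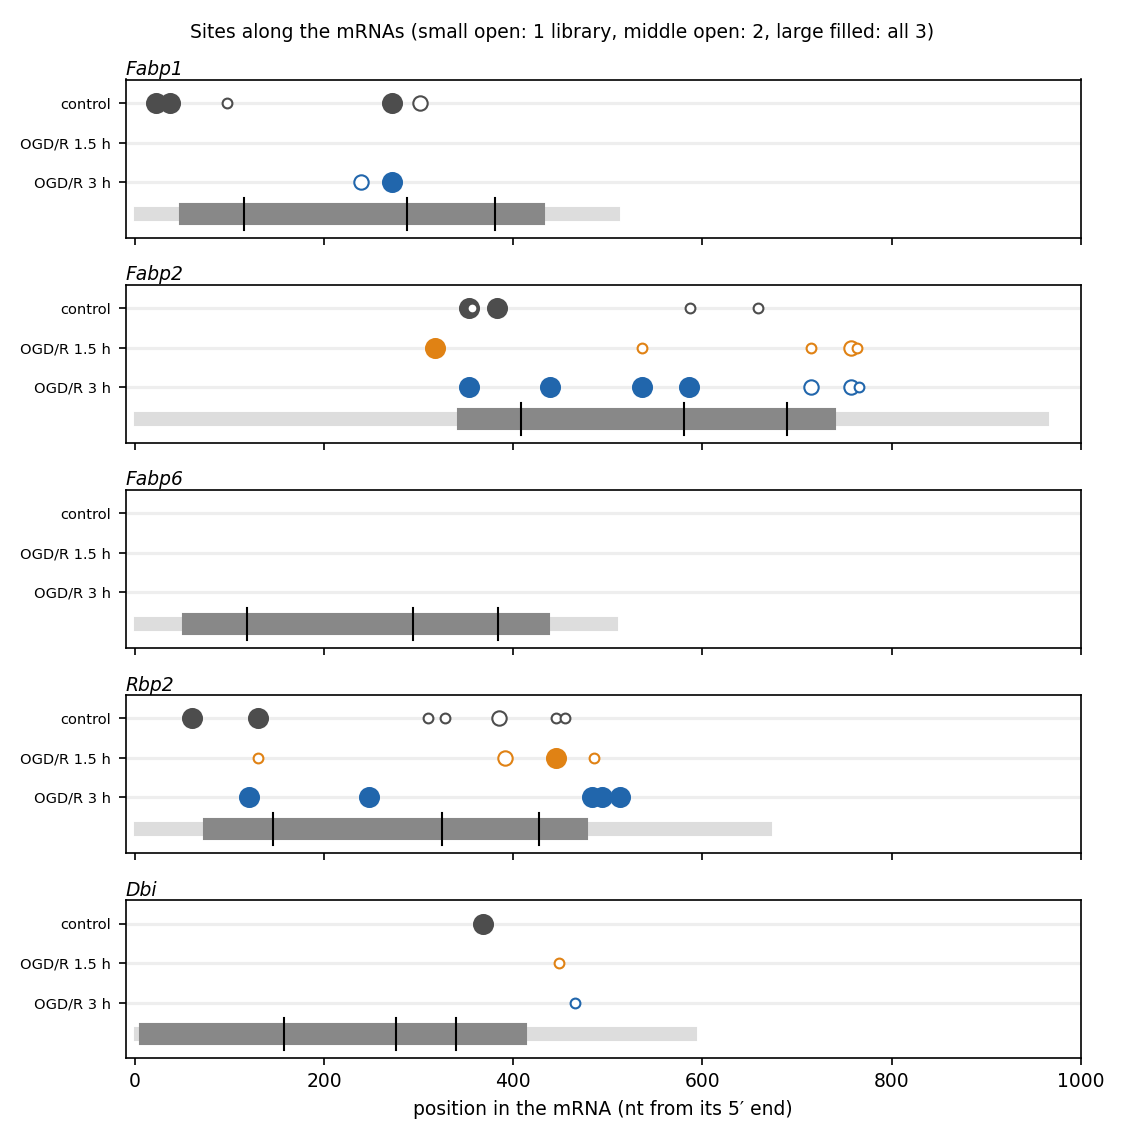
Sites along the 5 mRNAs, with the position in nt from the 5′ end on the horizontal axis and 1 row for each group. Circles grow with the number of libraries that list a site and are filled at all 3, thick bars are coding sequence, thin bars are untranslated regions and vertical ticks are exon junctions. Fabp6 is empty, and the first filled circles of Fabp1 and Rbp2 in control, at nt 22 and nt 60, lie upstream of the coding sequence.

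Each of the 3 control libraries listed 12 sites in the 5 mRNAs (12 ± 0, SD over libraries). OGD/R 1.5 h replicates 1, 2 and 3 listed 5, 5 and 6 (5.33 ± 0.577), and OGD/R 3 h replicates 1, 2 and 3 listed 14, 13 and 11 (12.7 ± 1.53). All OGD/R 1.5 h libraries lay below all other libraries, a log2 ratio of -1.17 to control, while OGD/R 3 h overlapped with control at a log2 ratio of 0.08. The ratio of OGD/R 3 h to OGD/R 1.5 h was 1.25. As a share of the mRNA sites of the library, the 5 genes held 0.289% to 0.316% in control, 0.141% to 0.160% in OGD/R 1.5 h and 0.232% to 0.275% in OGD/R 3 h. On this scale the 3 groups did not overlap, and OGD/R 3 h lay below control with a log2 ratio of -0.24. Counting only sites with a score of at least 10, control and OGD/R 3 h did not overlap either, but in the opposite direction. OGD/R 3 h then lay above control, at a mean of 12.67 against 9 sites and a log2 ratio of 0.49.

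**Figure D2:**
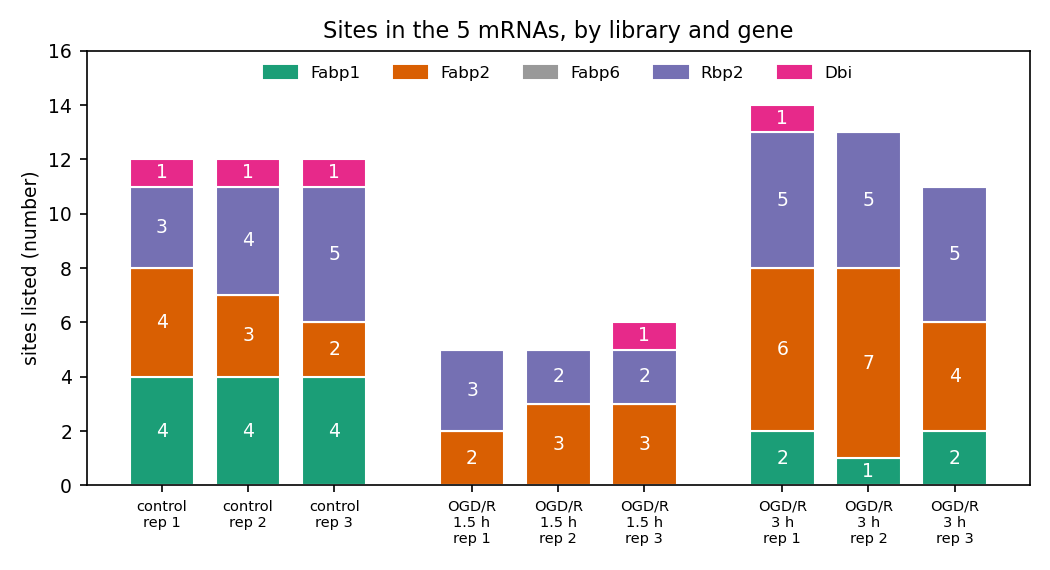
Number of sites listed in the 5 mRNAs, 1 bar per library and 1 colour per gene, starting at 0. Control bars stand at 12, OGD/R 1.5 h bars at 5 to 6 without Fabp1, and OGD/R 3 h bars at 11 to 14 with most sites in Fabp2 and Rbp2.

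Fabp1 lies on the plus strand of chromosome 6 from 71199879 to 71205034, and its mRNA of 512 nt holds 384 nt of coding sequence in 4 exons. It carried 4 sites in each control library, 0 in each OGD/R 1.5 h library and 2, 1 and 2 in OGD/R 3 h replicates 1, 2 and 3. Every control library thus held more than every OGD/R library. Over all genes with a site in either group, 18.7% had fewer sites in all OGD/R 3 h than in all control libraries, and 15.1% had fewer in all OGD/R 1.5 h libraries.

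The sites of Fabp1 differed between the groups in place as well. In the 5′ untranslated region, 27 and 12 nt before the start codon, the positions 71199900 and 71199915 were listed in control and in no OGD/R library. At 71199900, mRNA nt 22, the control scores were 138, 129 and 85. At 71199915, nt 37, they were 10, 7 and 9, near the median score of 9.67 ± 0.577 of all mRNA sites in the control libraries. In exon 2, position 71201764 (nt 272) had scores of 1000, 670 and 591 in control and of 895, 442 and 763 in OGD/R 3 h. These scores overlapped and exceeded those of at least 94.5% of the mRNA sites of the same library, and in OGD/R 1.5 h the site was not listed. Position 71201731 (nt 239), in the same exon, was listed in OGD/R 3 h replicates 1 and 3 alone, with scores of 58 and 68, and position 71203099 (nt 301) in control replicates 1 and 2 alone, with 127 and 108. Position 71199975 (nt 97) was listed in control replicate 3 alone, with a score of 0, the lowest a listed site can have. The last exon held no site.

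Fabp2 lies on the plus strand of chromosome 3 from 122895072 to 122899506, with an mRNA of 965 nt, 399 of them coding. Control replicates 1, 2 and 3 listed 4, 3 and 2 sites, OGD/R 1.5 h replicates 2, 3 and 3, and OGD/R 3 h replicates 6, 7 and 4. OGD/R 3 h thus lay above OGD/R 1.5 h in all libraries and met control at 4 sites. Over all genes, 19.9% had more sites in all OGD/R 3 h than in all OGD/R 1.5 h libraries. Fabp1, Fabp2 and Rbp2 were 3 of the 4 members with a site that did so, and 0 did the opposite.

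Over its libraries together (the union), control held 5 Fabp2 sites, OGD/R 1.5 h 5 and OGD/R 3 h 7, but at mostly different cytosines. Position 122895424 (nt 353), 12 nt into the coding sequence, had scores of 793, 1000 and 686 in control and of 924, 596 and 695 in OGD/R 3 h. The groups overlapped here, and no OGD/R 1.5 h library listed the site. With nt 272 of Fabp1, it was 1 of 2 member sites found in all control and all OGD/R 3 h libraries, both of them in 0 libraries of OGD/R 1.5 h. Among the 250 mRNA sites found in all libraries of control and OGD/R 3 h, 42% were in 0 libraries of OGD/R 1.5 h. Of those 250 sites, 10.8% had higher and 15.6% had lower scores in all OGD/R 3 h libraries than in all control libraries, and neither of the member sites was among them.

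Beyond nt 353, control and OGD/R 3 h had no Fabp2 site in common. Position 122895454 (nt 383) was listed in control alone, with scores of 476, 395 and 462. Position 122896767 (nt 439) was listed in OGD/R 3 h alone, with 349, 232 and 239. Position 122896864 (nt 536) had scores of 164, 169 and 409 in OGD/R 3 h and of 55 in OGD/R 1.5 h replicate 3, its only other library. Position 122898705 (nt 586) was listed in OGD/R 3 h alone, at 45, 68 and 48, and the neighbouring cytosine (nt 587) in control replicate 1 alone, at 104. Both lie within 10 nt of the start of exon 3.

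The only Fabp2 site in all OGD/R 1.5 h libraries was position 122895388 (nt 317), 25 nt before the start codon, with scores of 3, 2 and 4. In the last exon, OGD/R 1.5 h and OGD/R 3 h had 2 of 4 sites in common. Position 122899298 (nt 757), in the 3′ untranslated region, had 61 and 69 in OGD/R 1.5 h replicates 1 and 3 and 44 and 61 in OGD/R 3 h replicates 1 and 2. Position 122899256 (nt 715) had 52 in OGD/R 1.5 h replicate 2 and 36 and 65 in OGD/R 3 h replicates 1 and 2. The other 2 were listed once each, nt 763 in OGD/R 1.5 h replicate 2 with a score of 32 and nt 766 in OGD/R 3 h replicate 2 with 25. No control library listed any of the 4.

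Fabp6 lies on the minus strand of chromosome 11 from 43596040 to 43601562. Its mRNA of 510 nt holds 121 cytosines, more than the 105 of Fabp1, and no library listed any of them. Because the files are read as listing only positions that reached both limits, the absence sets no bound on methylation. It also does not show whether the mRNA was present. Over all annotated coding genes, 12.4% had a site in any library. The members with a site numbered 4 in control, 3 in OGD/R 1.5 h and 4 in OGD/R 3 h, where 8.62%, 8.31% and 6.9% of all coding genes had one.

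Rbp2 lies on the plus strand of chromosome 9 from 98490537 to 98509771, with an mRNA of 672 nt and 405 nt of coding sequence. Control replicates 1, 2 and 3 listed 3, 4 and 5 sites, OGD/R 1.5 h replicates 3, 2 and 2, and OGD/R 3 h replicates 5, 5 and 5. Control overlapped with both other groups, while OGD/R 3 h lay above OGD/R 1.5 h in all libraries. The unions held 7, 4 and 5 sites, and of the 14 distinct sites 0 were shared between control and OGD/R 3 h.

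The 5 Rbp2 sites of OGD/R 3 h were each listed in all 3 of its libraries and in no other library. Position 98490657 (nt 121), 48 nt into the coding sequence, had scores of 221, 256 and 226, with the narrowest relative spread of the 5. Position 98498816 (nt 247) had 84, 167 and 103. The other 3 lie close together in the 3′ untranslated region, at 98509582 (nt 483) with 37, 38 and 53, at 98509593 (nt 494) with 45, 35 and 34, and at 98509612 (nt 513) with 32, 207 and 31. At the last of these, replicate 2 stood apart from the others.

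In control, the Rbp2 sites that recurred had the lowest scores. Position 98490596 (nt 60), 14 nt before the start codon, scored 3 in each library, and position 98490666 (nt 130) scored 3, 1 and 2 in control and 10 in OGD/R 1.5 h replicate 1. The higher control scores stood at sites that varied between libraries, such as 98507848 (nt 385), listed in replicates 2 and 3 with 242 and 506. In OGD/R 1.5 h, position 98509544 (nt 445) scored 47, 164 and 73, and control replicate 1 listed it too, at 151.

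Dbi lies on the minus strand of chromosome 1, and its longest coding transcript spans 120113280 to 120120919 with an mRNA of 593 nt. All 3 of its sites lay in the last exon. Position 120113505 (nt 368) in the coding sequence was listed in control alone, with scores of 417, 412 and 234. In the 3′ untranslated region, position 120113425 (nt 448) was listed once, in OGD/R 1.5 h replicate 3 at 35, and position 120113408 (nt 465) once, in OGD/R 3 h replicate 1 at 58. A search of mm10 with the mRNA gave 2 other loci at 80% identity or more over at least 60 nt. They matched up to 422 nt of the mRNA at up to 93.1% identity, and all 3 sites lie in a matched stretch. Whether reads of such a copy were placed on Dbi was not tested, since no reads were examined. No site was listed at either locus. The other 4 mRNAs had 0 such loci. Between the coding sequences of Fabp1, Fabp2, Fabp6 and Rbp2 the identity was 52.1% to 60.3%, and between these and Dbi, of another family, it was 50.5% to 52.9%.

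**Figure D3:**
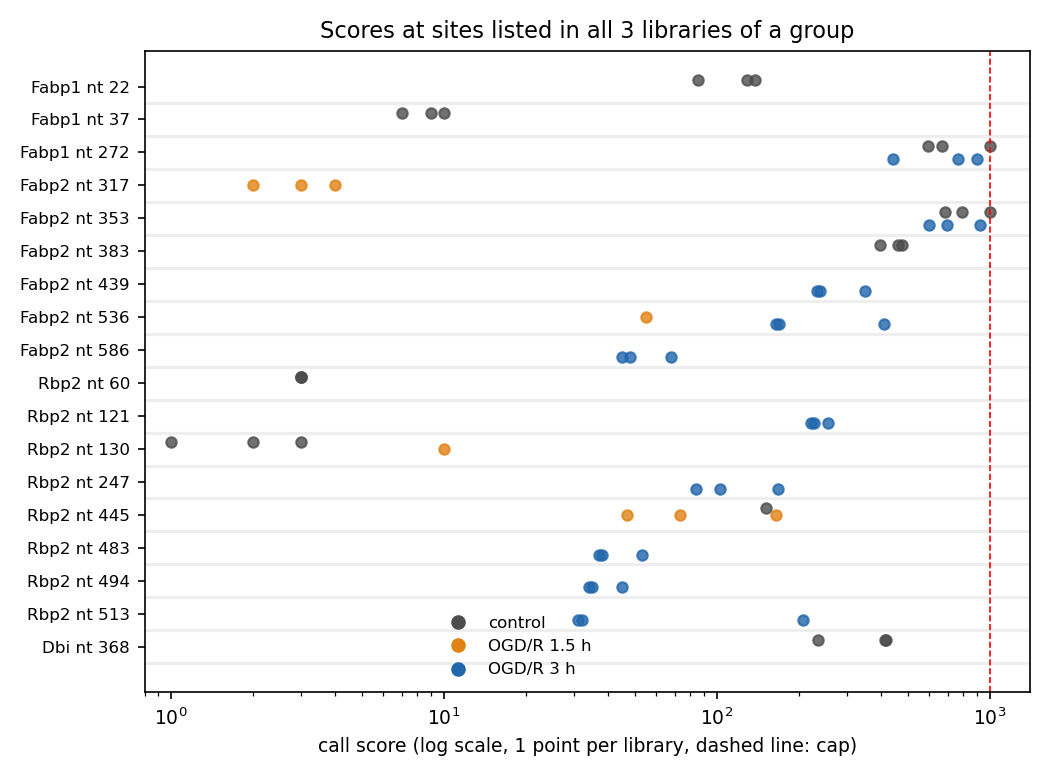
Call scores at the 18 sites listed in all 3 libraries of at least 1 group, on a log axis with 1 point per library and the cap of 1000 as a dashed line. Control and OGD/R 3 h points share a row only at Fabp1 nt 272 and Fabp2 nt 353, where they overlap, and points under 10 come from control at 3 sites and from OGD/R 1.5 h at 1 site.

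Member sites with a score under 10 were listed in control and OGD/R 1.5 h but not in OGD/R 3 h. In each control library 2 to 4 of the 12 sites scored under 10. In each OGD/R 1.5 h library 1 of 5 or 6 did, and in each OGD/R 3 h library 0 did. These calls came from few positions. In control they were at Fabp1 nt 37, Rbp2 nt 60 and Rbp2 nt 130, with Fabp1 nt 97 in replicate 3, and in OGD/R 1.5 h at Fabp2 nt 317. Over all mRNA sites, 49.3% to 50.6% scored under 10 in control, 53.3% to 54.4% in OGD/R 1.5 h and 45.1% to 46.8% in OGD/R 3 h. The median score of the member sites was 161 ± 73.6 in control, 48.3 ± 13.1 in OGD/R 1.5 h and 109 ± 54.8 in OGD/R 3 h (SD, 3 libraries). Control and OGD/R 3 h overlapped, at library medians of 132.5, 245 and 106.5 against 58, 167 and 103. For all mRNA sites these medians were 9.67 ± 0.577, 7 ± 0 and 12 ± 1.

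Recurrence within a group was counted over the union of its libraries. Of the 18 member sites of control, 8 were listed in all 3 libraries, which is 44.4% against 26.5% of all mRNA sites of the group. In OGD/R 3 h, 10 of 15 were, or 66.7% against 31.0%, and in OGD/R 1.5 h 2 of 10, or 20% against 18.0%. These counts rest on few sites, and the sites of an mRNA share its reads. Of the member sites found in either library of a pair, both libraries listed 71.4% to 80% within OGD/R 3 h, 50% to 60% within control and 22.2% to 57.1% within OGD/R 1.5 h. For all mRNA sites these shares were 42.8% to 45.4%, 39.97% to 40.9% and 29.8% to 30.6%, so that only the OGD/R 1.5 h pairs lay on both sides of them. When a control library was paired with an OGD/R 3 h library, 2 member sites were common to both in each of the 9 pairs, 8.33% to 9.52% of their joint sites, against 6.84% to 7.31% for all mRNA sites. Pairs of control and OGD/R 1.5 h shared 0% to 13.3% (all mRNA sites 10.3% to 10.7%) and pairs of the OGD/R groups 0% to 11.8% (6.52% to 7.29%).

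**Figure D4:**
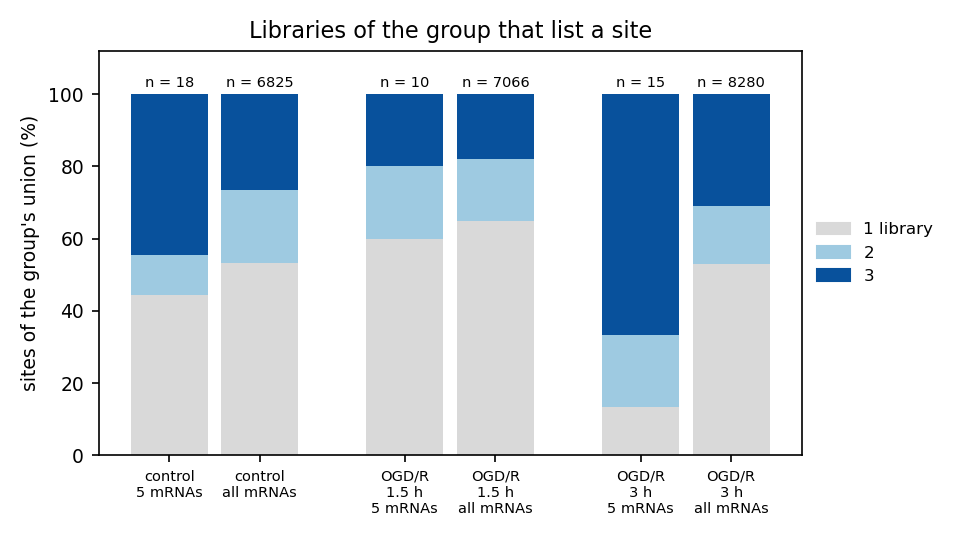
Share of sites listed in 1, 2 or all 3 libraries of a group, in percent of the union of the group, for the 5 mRNAs and for all mRNAs, with the number of sites above each bar. The dark part is 10 of 15 sites in OGD/R 3 h, 8 of 18 in control and 2 of 10 in OGD/R 1.5 h for the 5 mRNAs.

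Across the groups, 29 of the 36 sites were found in 1 group only, 14 in control, 5 in OGD/R 1.5 h and 10 in OGD/R 3 h. This is 80.6%, against 80.8% of all mRNA sites. By group it is 38.9%, 13.9% and 27.8% of the member sites, against 23.4%, 24.1% and 33.4% of all mRNA sites. The member share lay above the latter in control and below it in the OGD/R groups. A stricter count took sites in all 3 libraries of 1 group and 0 of the other 6. For control it gave 5 of 36 member sites, against 1020 of 18059 mRNA sites. After 3 h of deprivation it gave 7 against 1858, and after 1.5 h 1 against 631. On this count OGD/R 3 h also lay above the share of all mRNA sites. These counts rest on few sites. Control shared 2 sites with OGD/R 3 h and 2 others with OGD/R 1.5 h, and the OGD/R groups shared 3. These are 5.56%, 5.56% and 8.33% of the member sites, against 4.12%, 6.66% and 4.76% of all mRNA sites. No member site was found in all 3 groups, as 3.62% of all mRNA sites were.

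By part of the mRNA, 3 of 18 control sites lay in the 5′ untranslated region, 15 in the coding sequence and 0 in the 3′ untranslated region. In OGD/R 3 h these numbers were 0, 9 and 6 of 15 sites, and in OGD/R 1.5 h 1, 5 and 4 of 10. Over all mRNAs the share in the 3′ untranslated region was 8.70% in control, 8.29% in OGD/R 1.5 h and 10.3% in OGD/R 3 h. With windows of 100 nt on either side of the start and stop codons set apart, 16 of the 36 sites lay around the stop codon, 11 around the start codon and 9 in the rest of the coding sequence. Around the stop codon this is 44.4%, against 5.97% of all mRNA sites and 28.7% of the cytosines of these 5 short mRNAs. The stop codon window held 5 of 18 sites (27.8%) in control, near the share of the cytosines. It held 7 of 10 (70%) in OGD/R 1.5 h and 7 of 15 (46.7%) in OGD/R 3 h. These counts rest on few sites, and the sites of an mRNA share its reads. Of these sites, only Dbi nt 368 in control and Rbp2 nt 445 in OGD/R 1.5 h were in all 3 libraries of their group. In OGD/R 3 h those were Rbp2 nt 483, 494 and 513, which lie close together. The start codon window, with 24.9% of the cytosines, held 44.4%, 20% and 20% of the sites. The remaining untranslated regions held 0 of the 36 sites but 6.94% (5′) and 10.3% (3′) of the cytosines.

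The bases around the sites were compared with those around all 735 cytosines of the 5 mRNAs. Cytosine followed by guanine (CG) made up 6 of the 36 sites, CHG, where H is A, C or U, 12 and CHH 18. These are 16.7%, 33.3% and 50% of the sites, against 11.02%, 22.6% and 66.4% of the cytosines, so that CHH led in both. Over all mRNA sites the shares were 22.4%, 37.9% and 39.7%. Guanine took 32.9% and cytosine 18.5% of the bases within 10 nt, while around the 735 cytosines they took 24.3% and 24.8%. The motif CNGGG, read on the mRNA strand from the called cytosine and known from sites of the methyltransferase NSUN2, was met at 1 site, Fabp1 nt 272, and at 17 of the 735 cytosines (2.31%). Over all mRNA sites 3.29% met it. CTCCA, known from NSUN6, was met at 0 sites and 3 cytosines.

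Of the 23 sites in coding sequence, 15 were at the third base of a codon, 5 at the second and 3 at the first. Of the 412 coding cytosines 49.5% are at the third base, and of all mRNA sites in coding sequence 35.3%. Among the aligned coding sequences of Fabp1, Fabp2, Fabp6 and Rbp2, 2 pairs of sites shared a column, which was looked up after the values had been seen. At nt 383 of Fabp2 and nt 121 of Rbp2, printed above, the sites fall on the same column of the aligned coding sequences, at coding nt 42 and 48, and 15 of the 21 bases around them are identical. The Fabp2 site was listed in all control libraries alone and the Rbp2 site in all OGD/R 3 h libraries alone. The aligned cytosine of Fabp1, coding nt 42, was not listed in any library, and Fabp6 has T there. In the other pair, coding nt 245 of Fabp2 (nt 586) was listed in all OGD/R 3 h libraries. Coding nt 255 of Rbp2 (nt 328) was listed in control replicate 2 alone, at 248. This pair lies at the second base of a codon in Fabp2 and the third in Rbp2. The alignment is thus out of frame there, and the column need not join matching bases. The identities within the family, given above, overlap those with Dbi. How often sites share a column by chance was not worked out.

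Among 16 relatives of the members, Acbd3, Acbd4 and Acbd5, which carry an acyl-CoA binding domain like that of Dbi, had sites and 13 had none. The fatty acid binding proteins made in brain, Fabp3, Fabp5 and Fabp7, were among the 13. The unions of the groups, in the order control, 1.5 h and 3 h, held 11, 9 and 6 sites in Acbd3, 1, 4 and 0 in Acbd4 and 13, 18 and 3 in Acbd5. Acbd5 had fewer sites in all OGD/R 3 h than in all control libraries, as did 18.7% of all genes with a site. Acbd4 had more in all OGD/R 1.5 h than in all control libraries, as did 8.55%. Both had fewer in all OGD/R 3 h than in all OGD/R 1.5 h libraries, as did 13.4%, where Fabp1, Fabp2 and Rbp2 had more.

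Of 28 genes of lipid and retinoid handling in enterocytes, 17 carried a site. Their unions are given in the same order. Among apolipoproteins, Apob, which builds chylomicrons, carried 9, 6 and 36 sites, Apoa1 24, 6 and 21 and Apoa4 32, 16 and 18. Mttp, which loads lipid on Apob, carried 5, 3 and 11. In triglyceride synthesis, Dgat1 carried 24, 16 and 21, Mogat2 1, 3 and 2 and Acsl5 1, 0 and 4, and the fatty acid transporter Slc27a4 carried 13, 10 and 15. In retinoid metabolism Bco1, which cleaves carotene, carried 3, 0 and 0 and Rdh7 2, 2 and 1. Hnf4a, a transcription factor of enterocytes, carried 4, 5 and 3, Npc1l1 3, 0 and 4, Plin3 2, 1 and 3 and Scp2 1, 0 and 2. Pnpla2, Slc51a and Cdx2 each carried 1 in OGD/R 3 h alone. Lrat, to which Rbp2 delivers retinol, Cd36 and the bile acid transporter Slc10a2 were among the 11 with none.

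Of the 17 genes of the list with a site in control or OGD/R 3 h, 2 (Mttp and Apob) had more and 2 (Apoa4 and Rdh7) had fewer sites in all OGD/R 3 h libraries. These are 11.8% each, where 18.6% and 18.7% of all such genes had more and fewer. Of 14 genes with a site in control or OGD/R 1.5 h, 1 (Mogat2) had more in OGD/R 1.5 h and 3 (Dgat1, Apoa1 and Apoa4) had fewer, or 7.14% and 21.4% against 8.55% and 15.1% of all genes. Of 16 genes with a site in either OGD/R group, 5 (31.2%) had more in OGD/R 3 h and 0 had fewer, against 19.9% and 13.4% of all genes. The median number of sites of the genes with a site was 3.5, 5.5 and 3.5 in the list, again in that order. This median was 5, 4 and 3.5 in the members and 2, 2 and 3 over all coding genes.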

How the data were processed

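RNA was treated with bisulfite in 9 libraries, and 9 mock libraries, whose RNA was not treated, were not analysed here. The authors trimmed reads with cutadapt 1.9.3, aligned bisulfite reads to mm10 with meRanGh and called sites in each library with meRanCall. The submitters' processing notes also name STAR and CASAVA 1.8. The deposited score of a site is 10 times the call score, not normalized for depth.

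Sites were placed with Python 3.11.15 and numpy 2.4.6 on curated RefSeq transcripts of mm10, taking for each gene the one with the longest coding sequence. The mm10 sequence was read with samtools 1.23.1 and pysam 0.24.0, where all 25890 sites fell on a cytosine of their strand. Coding sequences were aligned globally with Biopython 1.88, copies were searched with blastn 2.17.0, and figures were drawn with matplotlib 3.10.9. Placement and the check of replicates were tested on simulated data. In that check, a chi-square per degree of freedom compared the coverage of replicates over sites called in all 3 libraries. Groups came from the sample titles. A gene was counted as higher in a group where its 3 libraries all held more sites than those of the other group. The genes and lists were chosen with earlier results of these data known. Named are all members, their sites called in all 3 libraries of a group, and genes of the family and lipid lists with a site. Of the cell type markers some examples are named. Alternatives were a score of at least 10, sites with no other site within 10 nt, the share of mRNA sites, calls in at least 2 or all 3 libraries, Dbi left out, codon windows of 50 nt and each library left out.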

Additional observations from a re-analysis of the deposited data

Results flagged for a closer look

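The members, the gene lists and each of their genes were searched for counts in which the OGD/R groups lay on opposite sides of control. In 3 counts of sites every OGD/R 1.5 h library lay below every control library and every OGD/R 3 h library above it. The share of all genes with this pattern was not worked out, so the 3 counts cannot be set against it. The difference between the OGD/R groups was not tested, and both are compared with the same control libraries. The 28 genes of lipid and retinoid handling summed to 81.7 ± 3.06 sites per library in control (mean ± SD, 3 libraries), to 43.7 ± 2.89 in OGD/R 1.5 h and to 96 ± 7 in OGD/R 3 h. The log2 ratio between the OGD/R groups was 1.14. The 12 markers of intestinal epithelium summed to 55 ± 2.65, 38.3 ± 4.16 and 103 ± 7.02 sites, a log2 ratio of 1.43. Muc2, a mucin of goblet cells and 1 of these markers, carried 3.33 ± 1.53, 0.667 ± 0.577 and 15 ± 1.73 sites, a log2 ratio of 4.49. As a share of the library's mRNA sites, a scale chosen after seeing the data, the lipid and retinoid list held 1.95% to 2.19% in control and 1.73% to 2.19% in OGD/R 3 h, which overlapped. On that scale it held 1.18% to 1.25% in OGD/R 1.5 h. The intestinal list held 1.28% to 1.49% in control, 0.984% to 1.15% in OGD/R 1.5 h and 2.03% to 2.19% in OGD/R 3 h, and Muc2 0.0482% to 0.129%, 0% to 0.0285% and 0.266% to 0.359%, in the order seen for the counts.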

How the results depend on the processing

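Of 60 alternatives for 15 results, 45 moved the value by less than the spread between libraries (or, for recurrence, within its 95% exact binomial interval), 14 moved it by more and 1 turned the direction of a difference whose libraries did not overlap. This was the list of lipid and retinoid handling in OGD/R 3 h against control, with a log2 ratio of 0.23 in number of sites and -0.079 as a share of mRNA sites (chosen after seeing the data). The alternatives that left out 1 library are all among the 45. They say little about stability, since the libraries of a group were counted as 1 sample. Leaving out a control library could not change the ratios of member sites, because each control library held 12. For OGD/R 3 h against control, the log2 ratio of member sites of 0.08 became 0.49 with a score of at least 10, 0.32 and 0.38 with sites called in all 3 and in at least 2 libraries, and -0.24 as a share of the mRNA sites. It was 0 to 0.17 with 1 library left out. For OGD/R 1.5 h against control, -1.17 became -2 with sites called in all 3 libraries and was -1.26 to -1.13 with 1 library left out. For OGD/R 3 h against OGD/R 1.5 h, 1.25 became 1.55 with a score of at least 10, 0.80 as a share, and 2.32 and 1.70 with sites called in all 3 and in at least 2 libraries, and was 1.17 to 1.34 with 1 library left out. The share of sites in coding sequence outside the codon windows was 27.8% in control, where it became 44.4% with windows of 50 nt and 12.5% with sites called in all 3 libraries. In OGD/R 1.5 h it was 10% and became 30% and 0%. The median score ranged over 120 to 189 in control, 41.5 to 54.5 in OGD/R 1.5 h and 80.5 to 135 in OGD/R 3 h with 1 library left out. The causes were not tested. No paired analysis was possible because replicate numbers are not stated to mark shared cultures, and no test was run. The deposited files give no coverage, and depth was not compared.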
